A study of Mus musculus with 371 samples.

Results

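Tigit, Cd226 and Cd96 encode surface receptors of the immunoglobulin superfamily that compete for shared ligands of the nectin family. These 3 genes of the 23362 in the expression table were described in 350 single T cells from B16F10 melanomas. TIGIT binds the poliovirus receptor (CD155, gene Pvr) and nectin-2 and carries an inhibitory motif in its tail. CD226, also called DNAM-1, binds the same ligands, pairs with the integrin LFA-1 and costimulates T cells and NK cells. CD96 binds CD155 as well, and both inhibitory and costimulatory roles have been described for it. Because the receptors share ligands, the amount of TIGIT relative to CD226 on 1 cell is commonly taken as a measure of how that cell reads CD155, so the transcripts were compared within cells as well as between groups. In tumours TIGIT is known as a receptor of regulatory T cells and of CD8 T cells that carry several checkpoint receptors.

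The cells were T cells sorted as CD8 or CD4 from B16F10 tumours, a transplanted mouse melanoma line, grown in C57BL/6 mice labelled WT or KO for Il27ra, the gene of the IL-27 receptor alpha chain. Each cell was profiled by Smart-seq2, which copies full-length mRNA of 1 cell, and values are FPKM, fragments per kilobase of transcript scaled to library size, so levels of different genes are per length. All 4 groups carried the tumour, and the age of the mice, the kind of Il27ra allele and any treatment beyond the tumour are not given in the sources used here. The titles give each group 1 animal name as a code word, and the same number after WT or KO. They do not say how many mice gave a group. Nor do they say whether the CD8 and CD4 cells of a label came from the same mice. Each of the 4 groups was treated as 1 sorted pool without a replicate, and pool and label cannot be told apart. The titles also end in p1 for every CD8 cell and p2 for every CD4 cell. That tag and the sort cannot be told apart in the CD4 against CD8 comparisons. No test between groups was therefore made, and intervals below are exact Clopper-Pearson 95% intervals that cover counting error over cells only.

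A cell was kept when 1000 genes or more reached 1 FPKM. This left 90 of 94 WT CD8, 86 of 90 KO CD8, 85 of 94 WT CD4 and 89 of 93 KO CD4 cells, with a median of 2148, 1955, 1661 and 1868 genes per cell. At least 1 Cd3 gene was found in 97.6% to 100% of cells. Cd4 was in 87.1% and 87.6% of the CD4 pools and in 0 cells of the CD8 pools. Cd8a was in 83.3% and 81.4% of the CD8 pools, and in 2.35% of WT CD4 and 1.12% of KO CD4 cells. The other CD8 gene, Cd8b1, was in 86.7% of WT CD8 and 91.9% of KO CD8 cells. It was also in 24.7% of WT CD4 and 21.3% of KO CD4 cells, so the CD4 pools were not free of CD8 transcripts. Il27ra itself was found in 51.1% (40.3% to 61.8%) of WT CD8, 53.5% (42.4% to 64.3%) of KO CD8, 50.6% (39.5% to 61.6%) of WT CD4 and 50.6% (39.8% to 61.3%) of KO CD4 cells. Mean Il27ra was 2.99, 3.24, 3.34 and 2.99 on the log2(FPKM + 1) scale in the same order. The pools labelled KO thus still held Il27ra signal in a like share of cells, and the gene-level value does not show which exons were read. WT and KO are used below as the labels of the pools, and every direction between them rests on those labels.

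In the GENCODE annotation of mm10, Tigit spans chr16:43648867-43664146 on the minus strand with 4 exons and 1 transcript of 919 bases. Cd96 spans chr16:46035657-46120251 on the minus strand with 15 exons and 1 transcript of 2184 bases, and 2371510 bases separate it from Tigit.

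The 250 bases upstream of the start of Tigit and of Cd96 (RefSeq, GRCm38.p6, minus strand) are shown because a receptor of the JAK-STAT class, the IL-27 receptor, is the gene the study varied. They cover chr16:43664185-43664434 for Tigit and chr16:46120249-46120498 for Cd96. Capitals mark matches to the letters TTCNNNGAA (STAT) and TGTGGT (RUNX), searched on both strands with GGTGTG (T-box), TCAAAG (TCF) and TGANTCA (AP-1).
Tigit: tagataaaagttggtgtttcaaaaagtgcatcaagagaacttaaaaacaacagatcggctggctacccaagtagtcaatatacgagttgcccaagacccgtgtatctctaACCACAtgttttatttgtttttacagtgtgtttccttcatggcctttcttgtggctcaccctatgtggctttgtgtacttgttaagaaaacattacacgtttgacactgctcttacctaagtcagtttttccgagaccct
Cd96: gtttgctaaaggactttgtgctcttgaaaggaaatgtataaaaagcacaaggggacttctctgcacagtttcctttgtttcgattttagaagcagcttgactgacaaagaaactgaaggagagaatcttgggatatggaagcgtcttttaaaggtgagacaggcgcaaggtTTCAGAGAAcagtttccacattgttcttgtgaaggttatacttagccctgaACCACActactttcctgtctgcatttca
The Cd96 window held 1 STAT match, which begins 79 bases upstream of the start, and 1 RUNX match 28 bases upstream on the minus strand of the gene. The Tigit window held 1 RUNX match at 140 bases upstream, also on the reverse strand, and no STAT match. Among 32851 promoters of the same length, 7.02% held the STAT letters, 14% the RUNX letters, 16.3% the T-box letters, 13.8% the TCF letters and 6.75% the AP-1 letters. The matches are a description of the sequence and were not tied to any value here. They cover Tigit and Cd96 only, and no window of Cd226 was read for matches or shown.

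Tigit was the member found most often and at the highest level in every group. It was at 1 FPKM or above in 58.9% (48% to 69.2%) of WT CD8 cells, 62.8% (51.7% to 73%) of KO CD8 cells, 69.4% (58.5% to 79%) of WT CD4 cells and 61.8% (50.9% to 71.9%) of KO CD4 cells. The lowest cell of each group was at 0, the median cell at 1.91, 2.27, 8.48 and 7.64 and the highest at 11.77, 11.28, 12.37 and 12.51 on the log2(FPKM + 1) scale, in the same order of groups. The mean level was 4.20 ± 4.46 (SD over 90 cells), 4.21 ± 4.18 (86 cells), 5.96 ± 4.89 (85 cells) and 5.42 ± 4.82 (89 cells). The order from high to low was therefore WT CD4, KO CD4, KO CD8 and WT CD8, and the intervals of the shares of all 4 groups overlapped.

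Tigit levels fell into a high and a low range. Among Tigit-positive cells the median level was 8.90 for WT and 8.16 for KO cells of the CD8 sort, and 9.71 for WT and 9.58 for KO cells of the CD4 sort, on the log2(FPKM + 1) scale. Yet 11, 14, 9 and 5 of the positive cells were under 5 FPKM, and at 20 FPKM or above the Tigit shares were 42.2%, 45.3%, 56.5% and 55.1%. The 4 groups overlapped along the whole range of levels.

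Cd226, the costimulatory member, was found in 36.7% (26.8% to 47.5%) of WT CD8, 52.3% (41.3% to 63.2%) of KO CD8, 22.4% (14% to 32.7%) of WT CD4 and 22.5% (14.3% to 32.6%) of KO CD4 cells. Its mean level was 2.05 ± 2.99, 3.27 ± 3.49, 1.52 ± 2.94 and 1.45 ± 2.82 on the log2 scale (SD over the same cells). The median cell was at 0 in 3 groups and at 2.11 in KO CD8, and the highest cells were at 8.37, 9.18, 9.60 and 9.41. Cd226 lies at chr18:89176967-89272229 on the plus strand of mm10, with 10 annotated transcripts, the longest of 4494 bases in 8 exons. KO CD8 stood at the top of the order of Cd226 levels. Its interval overlapped that of WT CD8 and lay above those of both CD4 pools.

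Cd96 was found in 38.9% (28.8% to 49.7%) of WT CD8, 38.4% (28.1% to 49.5%) of KO CD8, 16.5% (9.31% to 26.1%) of WT CD4 and 23.6% (15.2% to 33.8%) of KO CD4 cells. Mean Cd96 levels were 2.75 ± 3.74, 2.81 ± 3.77, 1.02 ± 2.60 and 1.73 ± 3.27 on the log2 scale, the median cell was at 0 in all 4 groups, and the highest cells were at 9.85, 9.77, 10.72 and 9.58. Both CD8 pools stood above both CD4 pools, and the intervals of WT CD8 and WT CD4 did not overlap. In WT CD4, 1 cell carried 43.3% of the summed FPKM of Cd96.

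**Figure D1:**
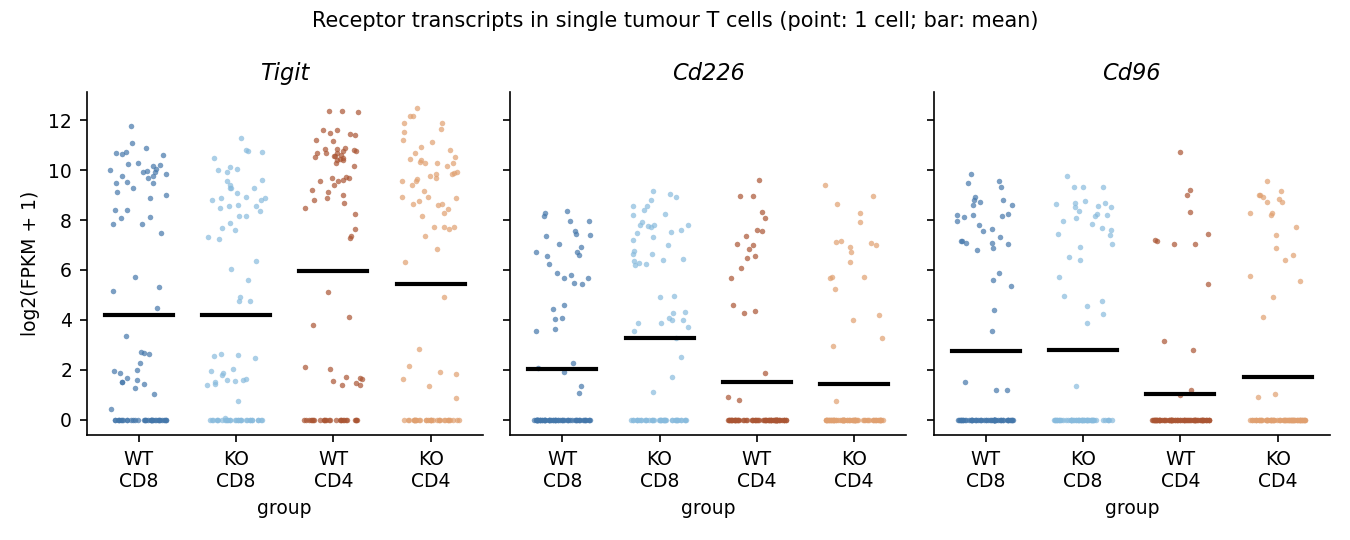
Level of Tigit, Cd226 and Cd96 in each kept cell, as log2(FPKM + 1) on the vertical axis, by labelled group on the horizontal axis; a point is 1 cell and a bar is the mean over cells. Many cells sit at 0 for each receptor, the Tigit means lie between 4.20 and 5.96, and the highest Cd226 mean (3.27) is that of KO CD8.

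Between the CD8 pools, Cd226 was the member that differed. Its mean FPKM was 36.2 in WT and 81.8 in KO cells, and the KO minus WT difference of mean log2(FPKM + 1) was 1.22, the rank of 8 from the top among 4686 genes measured in at least 20% of cells of either group. The difference was 0.06 for Cd96 and 0.02 for Tigit, whose mean FPKM was 375.1 in WT and 278.0 in KO. Of the 3 members 1 was thus at least 1 higher in KO, against 0.555% of all measured genes, and 0 were at least 1 lower, against 13.3%. The median measured gene differed by -0.40, so the values for Cd96 and Tigit near 0 lay above 82.5% and 79.7% of measured genes.

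The number of genes found per cell moved with this comparison. In WT CD8, 27 of 90 cells had 2500 genes or more, against 7 of 86 KO CD8 cells. Cd96 was in 74.1% (53.7% to 88.9%) of those 27 WT cells and in 19.2% to 28.1% of WT cells of the 3 lower ranges of gene number. Over WT CD8 cells, the correlation with the number of genes was 0.51 for Tigit, 0.49 for Cd96 and 0.08 for Cd226, and over KO CD8 cells it was 0.33, 0.08 and 0.16, as a description of cells that share a pool.

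With the cells under 2500 genes alone, a limit chosen after the values were seen, all 3 receptors were higher in KO CD8 than in WT CD8. In those 63 WT and 79 KO cells the difference was 0.97 for Tigit, 1.32 for Cd226 and 1.09 for Cd96, while the median of 3706 measured genes differed by -0.01. There 2 of the 3 members were at least 1 higher in KO, against 2.32% of measured genes. The Tigit share was 50.8% (37.9% to 63.6%) in WT and 60.8% (49.1% to 71.6%) in KO, the Cd226 share 33.3% (22% to 46.3%) and 51.9% (40.4% to 63.3%), and the Cd96 share 23.8% (14% to 36.2%) and 38% (27.3% to 49.6%). With all cells kept and both pools weighted to the same mix of gene numbers, the differences were 0.94 for Tigit, 1.51 for Cd226 and 0.51 for Cd96, beside a median of -0.09 over all measured genes. Conversely, in cells with at least 2000 genes the Cd96 difference was -0.84. The Cd226 mean was higher in KO in each of the 4 ranges of gene number, at 2.72 against 0.00, 2.91 against 1.71, 3.61 against 2.24 and 4.45 against 2.52, with only 5 WT cells in the lowest range and 7 KO cells in the highest.

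**Figure D2:**
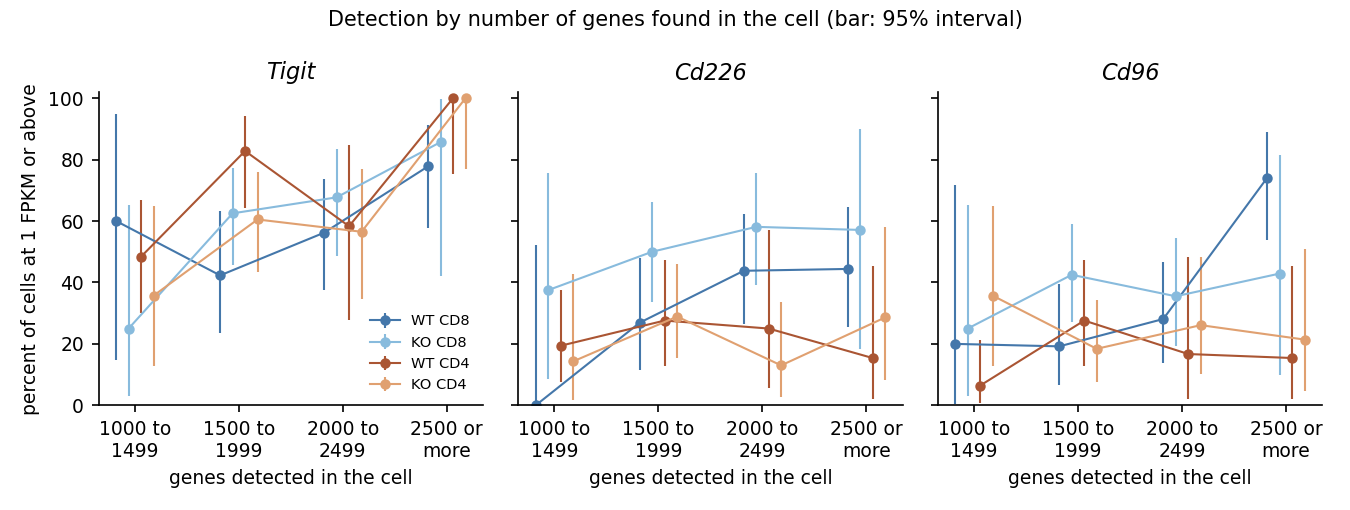
Percent of cells with Tigit, Cd226 or Cd96 at 1 FPKM or above (vertical axis) by the number of genes found in the cell (horizontal axis), for the 4 labelled groups; bars are exact 95% intervals and cover counting error only. Cd96 reaches 74.1% in WT CD8 cells with 2500 genes or more, and the KO CD8 points for Cd226 lie above the WT CD8 points in each range.

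Between the CD4 pools, none of the 3 members was past a difference of 1 in either direction. KO minus WT was -0.54 for Tigit, -0.07 for Cd226 and 0.71 for Cd96. Weighted to equal gene numbers, it was -0.99 for Tigit, -0.15 for Cd226 and 0.64 for Cd96. Among the 3864 genes measured in this comparison 9.91% were at least 1 higher and 0.983% at least 1 lower in KO, and the median was 0.23. The CD4 pools differed in their share of cells with Foxp3, the transcription factor of regulatory T cells, at 54.1% in WT and 39.3% in KO. Within the Foxp3-positive cells the Tigit difference was 0.57, beside a median of 0.42 over all genes, and within the Foxp3-negative cells it was -0.09, beside 0.21. The lower Tigit mean of the whole KO CD4 pool was therefore found in neither subset at that size.

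Foxp3-positive cells carried most of the Tigit signal of the CD4 pools. Tigit was found in 84.8% (71.1% to 93.7%) of the 46 WT and 88.6% (73.3% to 96.8%) of the 35 KO cells with Foxp3, and in 51.3% (34.8% to 67.6%) of the 39 WT and 44.4% (30.9% to 58.6%) of the 54 KO cells without it. Mean Tigit was 8.16 and 8.73 on the log2 scale with Foxp3 and 3.36 and 3.28 without, a difference of 4.80 in WT and 5.46 in KO. Tigit ranked 9 from the top of 3850 genes measured in WT and 10 of 4849 in KO. In the same split Ctla4, another inhibitory receptor of regulatory T cells, differed by 5.12 and 7.32. A cell listed at 0 for Foxp3 can still be a regulatory T cell, since low transcripts are missed in single cells.

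Cd226 and Cd96 leaned the other way. Cd226 was in 15.2% (6.34% to 28.9%) of WT and 8.57% (1.80% to 23.1%) of KO cells with Foxp3, and in 30.8% (17% to 47.6%) and 31.5% (19.5% to 45.6%) of those without. The difference with minus without Foxp3 was -0.96 in WT and -1.54 in KO. Cd96 was in 8.70% (2.42% to 20.8%) and 17.1% (6.56% to 33.6%) of cells with Foxp3 and in 25.6% (13% to 42.1%) and 27.8% (16.5% to 41.6%) of those without, with differences of -0.86 and -0.71. In each pool 1 of the 3 members, Tigit, was at least 1 higher with Foxp3, against 23.9% of measured genes in WT and 30% in KO. None of the 3 in WT, against 4.81% of genes, and only Cd226 in KO, against 2.35%, was at least 1 lower. The median measured gene was 0.42 higher with Foxp3 in WT and 0.60 higher in KO, so the 2 lower receptors ran against the bulk of genes.

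By mean log2 level, Tigit was higher in the CD4 than in the CD8 pools under both labels, and Cd226 and Cd96 were lower. Not every measure followed: in KO the Tigit share was 61.8% in CD4 and 62.8% in CD8, and in WT mean Cd226 was 42.8 FPKM in CD4 and 36.2 in CD8, with a difference of -0.11 weighted to equal gene numbers. CD4 minus CD8 was 1.76 for Tigit in WT and 1.21 in KO, -0.53 and -1.82 for Cd226, and -1.73 and -1.08 for Cd96. In WT, 1 of 3 members was at least 1 higher in CD4, against 1.54% of 4729 measured genes, and 1 of 3 at least 1 lower, against 23.4%. In KO, 1 of 3 was at least 1 higher, against 8.24% of 3956 genes, and 2 of 3 at least 1 lower, against 4.55%. The median gene differed by -0.53 in WT, so Cd226 there lay at the median, and by 0.03 in KO. CD4 cells without Foxp3 had mean Tigit of 3.36 and 3.28, below the 4.20 and 4.21 of the CD8 pools, so the higher Tigit of the CD4 pools lay in their Foxp3-positive cells.

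The balance of Tigit against Cd226 within each cell was furthest toward Tigit in CD4 cells with Foxp3 and nearest to even in KO CD8 cells. The mean over cells of log2 Tigit minus log2 Cd226 was 2.15 ± 5.20 (SD over cells) for WT CD8, 0.95 ± 5.45 for KO CD8, 4.44 ± 5.93 for WT CD4 and 3.97 ± 5.87 for KO CD4. Among cells with either transcript, Tigit was the higher in 72.7% (60.4% to 83%) of 66, 63.2% (51.3% to 73.9%) of 76, 83.1% (71.7% to 91.2%) of 65 and 85.7% (74.6% to 93.3%) of 63 cells. With Foxp3 the mean balance was 7.09 in WT and 8.22 in KO, and Tigit was the higher in 90.2% (76.9% to 97.3%) and 100% (88.8% to 100%) of such cells. Without Foxp3 it was 1.33 and 1.22, and Tigit was the higher in 70.8% (48.9% to 87.4%) and 71.9% (53.3% to 86.3%), close to the values of the CD8 pools.

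Cells with Cd226 and without Tigit made up 14.4% (7.92% to 23.4%) of WT CD8 and 25.6% (16.8% to 36.1%) of KO CD8 cells, and 7.06% (2.63% to 14.7%) and 8.99% (3.96% to 16.9%) of the CD4 pools. Cells with Tigit and without Cd226 made up 36.7%, 36%, 54.1% and 48.3%. At 1 FPKM the CD8 pools thus differed more in the Cd226-only class, with overlapping intervals, than in the Tigit-only class. This depended on the detection level. From 20 FPKM Cd226 was in 26.7% of WT CD8 and 37.2% of KO CD8 cells, and Tigit in 42.2% and 45.3%. Both together were in 12.2% and 19.8%. There the Cd226-only gap was smaller and the Tigit-only gap larger than at 1 FPKM. Under 2500 genes the balance was 1.12 in WT CD8 and 0.77 in KO CD8, a smaller gap than over all cells, and the Cd226-only share was 14.3% and 26.6%.

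**Figure D3:**
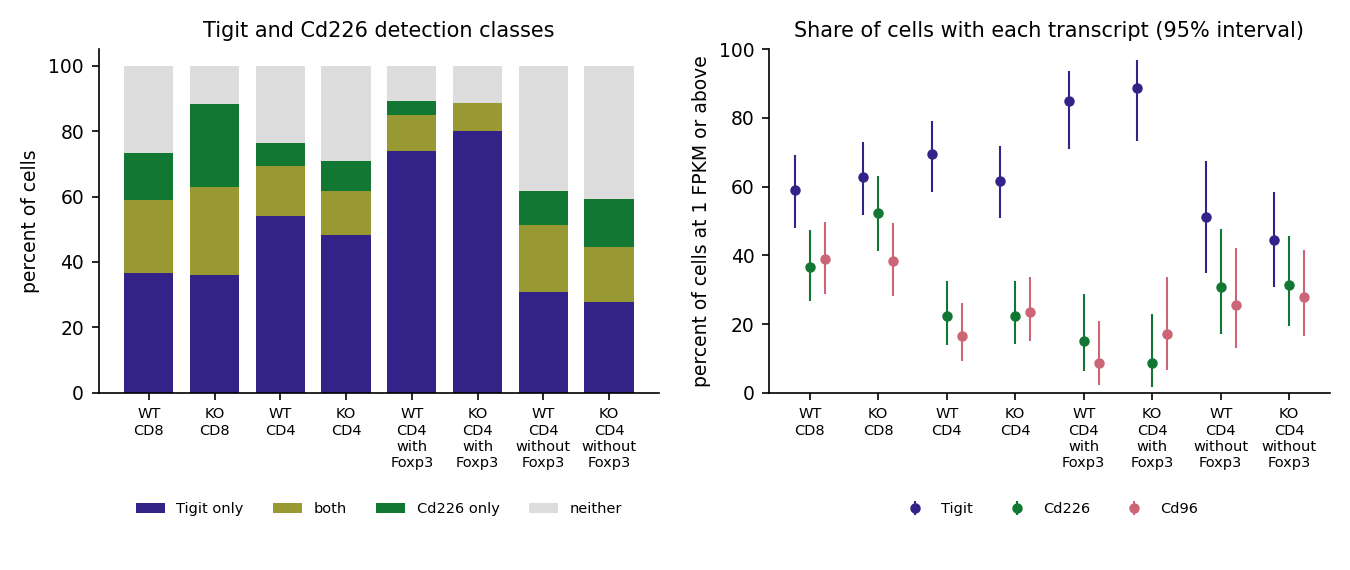
Left, percent of cells (vertical axis) with Tigit only, both transcripts, Cd226 only or neither, for the 4 labelled groups and for the CD4 pools split by Foxp3; right, percent of cells with each receptor with exact 95% intervals. With detection at 1 FPKM, the Cd226-only class is 25.6% in KO CD8 and 14.4% in WT CD8, and Tigit is at 84.8% and 88.6% in cells with Foxp3.

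Co-detection was set beside the product of the single shares, the value that independent detection would give. Tigit and Cd226 were found together in 22.2% (14.1% to 32.2%) of WT CD8 cells beside a product of 21.6%, in 26.7% (17.8% to 37.4%) of KO CD8 beside 32.9%, in 15.3% (8.40% to 24.7%) of WT CD4 beside 15.5% and in 13.5% (7.17% to 22.4%) of KO CD4 beside 13.9%. Each product lay inside the interval. In KO CD8, Cd226 was in 42.6% (29.2% to 56.8%) of 54 cells with Tigit and 68.8% (50% to 83.9%) of 32 cells without it, whereas in WT CD8 it was in 37.7% (24.8% to 52.1%) and 35.1% (20.2% to 52.5%). The intervals overlap, and the difference between the pools was not tested. The correlation of the Tigit and Cd226 levels across cells was between -0.12 and 0.07 in the 4 groups.

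Tigit and Cd96 were found together in 28.9% (19.8% to 39.4%) of WT CD8 cells beside a product of 22.9%, with a correlation of levels of 0.31. In KO CD8 they were together in 20.9% beside 24.1%, and the correlation was -0.10. The WT cells with Tigit and Cd96 and without Cd226 had a median of 3340 genes, against 2030 in cells with Tigit alone. Under 2500 genes the WT co-detection was 14.3% beside a product of 12.1%, and the correlation was 0.02. Cd226 and Cd96 were together in 13.3% of WT CD8 beside 14.3%, in 25.6% (16.8% to 36.1%) of KO CD8 beside 20.1%, in 8.24% (3.38% to 16.2%) of WT CD4 beside 3.68% and in 5.62% of KO CD4 beside 5.30%.

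All 3 receptors were found in 10 of 90 WT CD8, 11 of 86 KO CD8, 6 of 85 WT CD4 and 3 of 89 KO CD4 cells. None of the 3 was found in 18.9% (11.4% to 28.5%) of WT CD8, 6.98% (2.60% to 14.6%) of KO CD8, 20% (12.1% to 30.1%) of WT CD4 and 20.2% (12.4% to 30.1%) of KO CD4 cells. KO CD8 was thus the pool with the fewest cells lacking all 3, and its interval overlapped the others. The class with Cd226 and Cd96 but not Tigit was 2.22% (0.270% to 7.80%) of WT CD8 and 12.8% (6.56% to 21.7%) of KO CD8 cells.

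Tigit kept company with other inhibitory receptors in WT CD8 cells and in both CD4 pools. In the CD4 pools, all 5 co-inhibitory genes found in at least 10 cells were more frequent with Tigit. The median was 24.5 percentage points in WT and 25.0 in KO, beside 7.04 and 7.22 points over all genes. In WT CD8, Tigit was found in 86.1% (70.5% to 95.3%) of the 36 cells with Pdcd1, the PD-1 gene. It was in 40.7% (27.6% to 55%) of those without. For Lag3 the Tigit shares were 89.7% and 44.3%, for Ctla4 83.3% and 37.5%, for Havcr2, which encodes TIM-3, 84% and 49.2%, and for Ifng, the interferon gamma gene, 95.2% and 47.8%. All 7 genes of the list of co-inhibitory receptors were more frequent in Tigit-positive WT CD8 cells, by a median of 28.8 percentage points, while 77.7% of 6870 genes were more frequent there, by a median of 7.19 points. WT CD8 cells with Lag3 had a median of 3347 genes and those without 2038, and the part of gene number in the result was not tested over all cells. Under 2500 genes, Pdcd1 was in 34.4% of Tigit-positive and 6.45% of Tigit-negative WT CD8 cells, and Ctla4 in 50% and 12.9%. These were the 2 co-inhibitory genes found in at least 10 of those cells. Ifng belongs to the list of cytotoxic effectors. That list was more frequent with Tigit by a median of 22.3 points over 6 genes in all WT CD8 cells. Under 2500 genes its median was 2.52 points over 5 genes. In KO CD8, all 5 cytotoxic genes found in at least 10 cells were more frequent with Tigit, and the median changed little with gene number. It was 14.5 points over all cells, beside 3.59 points over all genes, and 14.2 points in cells under 2500 genes.

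In KO CD8 cells the same pairs stood closer, least so for Ctla4. Tigit was in 69.6% of cells with Pdcd1 and 60.3% of those without, in 62.5% and 62.9% for Lag3, and in 70.7% and 55.6% for Ctla4. Of 4 co-inhibitory genes found in at least 10 KO CD8 cells, 3 were more frequent with Tigit, by a median of 9.07 points, beside 64.8% of 5435 genes that were more frequent there, by a median of 3.59 points. A count of Pdcd1, Havcr2, Lag3 and Ctla4 per cell, formed after the values were seen, shows where the pools part. Among cells with none of these 4, Tigit was in 29.7% (15.9% to 47%) of 37 WT CD8 and 58.8% (40.7% to 75.4%) of 34 KO CD8 cells. Among cells with 2 or more it was in 88.6% (73.3% to 96.8%) of 35 WT CD8 and 65.2% (42.7% to 83.6%) of 23 KO CD8 cells. Both pairs of intervals overlap, and the difference between the pools was not tested. Under 2500 genes the values were 29.4% and 58.8% with none and 91.7% of 12 and 61.1% of 18 cells with 2 or more. Among CD4 cells with none of the 4, Tigit was in 47.4% of 19 WT and 34.6% of 26 KO cells. Among those with 2 or more, it was in 84.1% of 44 WT and 92.7% of 41 KO cells. The co-inhibitory list medians were 31.9 (WT) and 27.8 (KO) points in CD4 cells with Foxp3. Without Foxp3 they were 10.8 and 28.4 points, over 2 genes each. Only 7 WT and 4 KO cells with Foxp3 lacked Tigit.

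Genes of naive and memory cells ran against Tigit in WT CD8 cells. Tigit was in 46.8% of cells with Tcf7, a transcription factor of naive and stem-like T cells, and in 72.1% of cells without it, and 6 of 7 genes of the list were less frequent with Tigit, where 77.7% of all genes were more frequent. In KO CD8 the Tcf7 pair was 55.4% and 76.7%, and 3 of the 7 genes were less frequent with Tigit, where 64.8% of all genes were more frequent. In both CD4 pools, all 7 genes of the regulatory T cell list were more frequent with Tigit, by a median of 39.2 points in WT and 35.6 in KO, beside 75.3% and 75.2% of all genes and medians of 7.04 and 7.22 points. The list holds Foxp3, and within the Foxp3 split the medians were smaller, at 13.2 points in WT and 0 in KO among cells with Foxp3, and at -2.37 over 3 genes in WT and 9.60 over 4 genes in KO among cells without it. Ikzf2, which encodes Helios, marked cells of which 88.1% in WT CD4 and 90% in KO CD4 had Tigit, against 51.2% and 47.5% of cells without Ikzf2.

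Cd226 was found less often in CD8 cells with naive and memory genes. Cells with Tcf7 had Cd226 in 27.7% (WT) and 44.6% (KO), and cells without it in 46.5% and 66.7%. All 7 naive and memory genes in WT CD8 and 5 of 7 in KO CD8 were less frequent in Cd226-positive cells, while 60.2% and 56.8% of all genes were more frequent there. With Id2, a factor of effector cells, Cd226 was in 42.9% and 61.5% of CD8 cells and without it in 22.2% and 38.2%. Eomes, which encodes the T-box factor eomesodermin, ran the other way in WT CD8, with Cd226 in 18.8% of the 16 cells that had it and 40.5% of the others; in KO CD8 the shares were 50% and 52.6%. For Pdcd1 the Cd226 shares were 33.3% with and 38.9% without it in WT CD8, and 60.9% and 49.2% in KO CD8. Of the co-inhibitory genes found in at least 10 cells, 5 of 7 in WT CD8 and 4 of 4 in KO CD8 were more frequent with Cd226, by medians of 0.638 and 7.48 points, beside 2.39 and 1.14 points over all genes.

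Cd96 followed another pattern. In WT CD8 cells it was in 91.7% of the 12 cells with Prdm1, the Blimp-1 gene, and 30.8% of the others, in 68.8% of cells with Eomes and 32.4% without, and in 62.1% with Lag3 and 27.9% without. These pairs stood beside 87.5% of all genes that were more frequent in Cd96-positive WT CD8 cells, by a median of 12.2 points. In KO CD8 the Cd96 shares were 33.3% with and 38.8% without Prdm1, 40% and 38.2% for Eomes, and 43.8% and 37.1% for Lag3. Only 6 KO CD8 cells had Prdm1, under the 10 asked of list genes, while 10 had Eomes and 16 had Lag3. There the shares stood further apart for Tox and Tbx21, with Cd96 in 56.2% and 34.3% for Tox and 56% and 31.1% for Tbx21, which encodes T-bet. Under 2500 genes, Lag3 was in 13.3% of Cd96-positive and 12.5% of Cd96-negative WT CD8 cells. The list of transcription factors, which holds Prdm1 and Eomes, also changed. In all WT CD8 cells 10 of 10 were more frequent with Cd96, by a median of 18.6 points. Under 2500 genes 4 of the 7 found in at least 10 cells were, with a median of 3.33 points. In WT CD4, Cd96 was in 3.23% of the 31 cells with Gzmb, the granzyme B gene, and 24.1% of those without. That pair is over the whole pool. There Gzmb was in 63% of cells with Foxp3 and 5.13% of those without, and Cd96 in 8.70% and 25.6%.

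**Figure D4:**
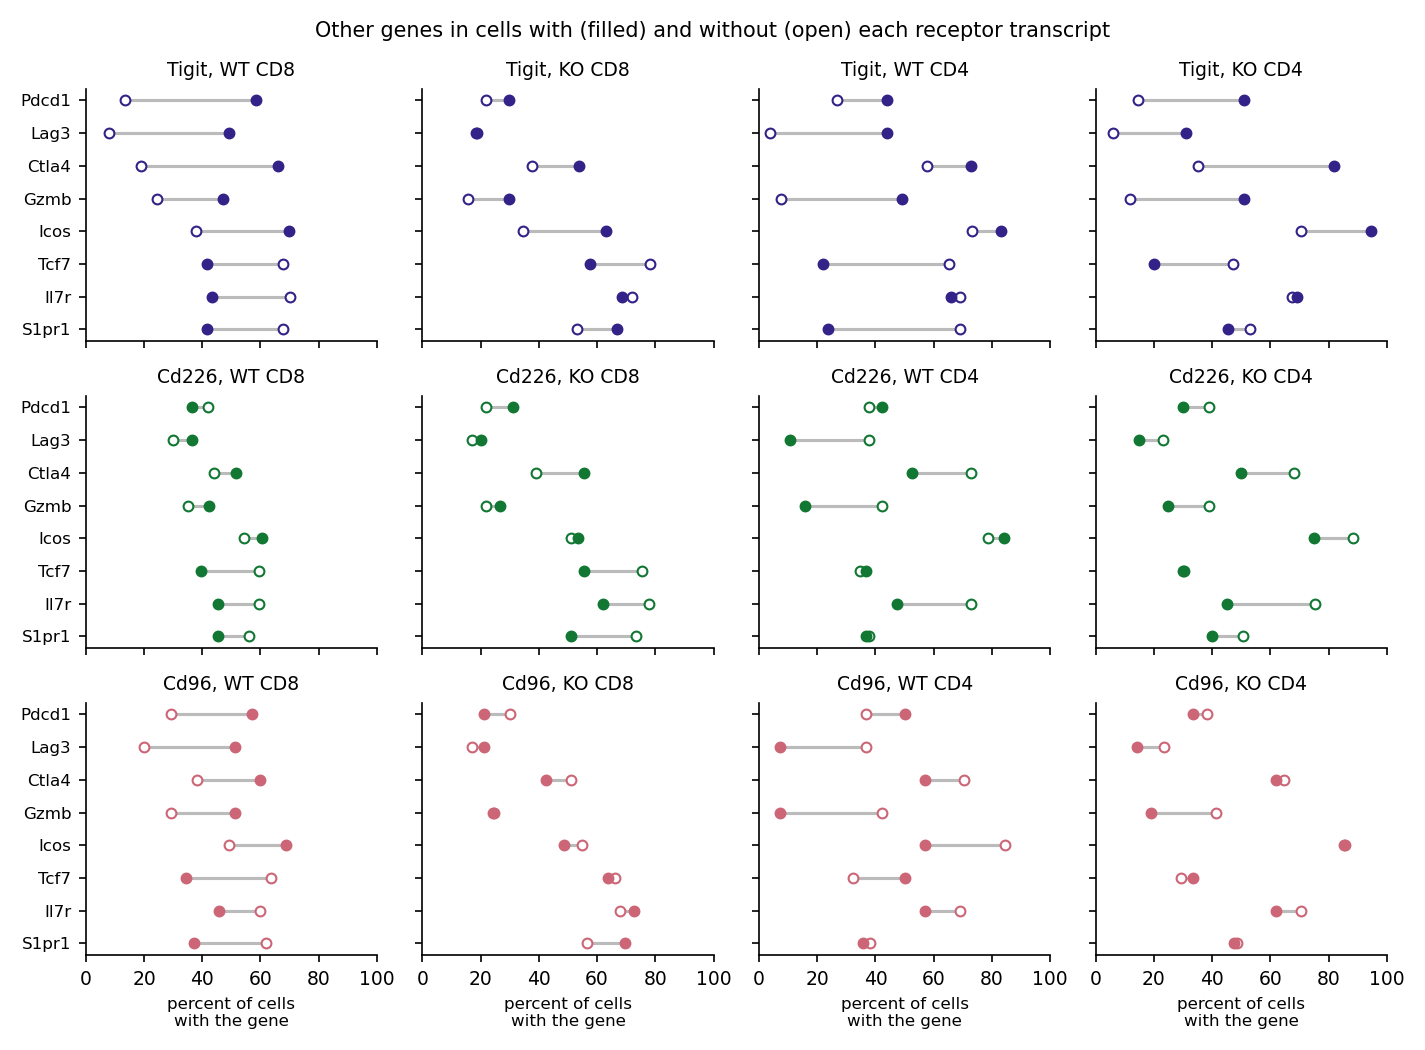
Percent of cells in which each of 8 genes (rows) was found, in cells with (filled) and without (open) Tigit, Cd226 or Cd96, for the 4 labelled groups; the horizontal axis is percent of cells. For Tigit, Pdcd1 is at 58.5% and 13.5% in WT CD8 and at 29.6% and 21.9% in KO CD8, and Ctla4 is at 53.7% and 37.5% in KO CD8.

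The genes whose levels across cells were most like Tigit, by the mean of the 4 within-group correlations among 2380 genes found in at least 20% of cells of every group, were Capg (0.47), Ctla4 (0.46), Gzmb (0.44), Glrx (0.42) and Pdcd1 (0.40). Capg encodes an actin-capping protein and Glrx a glutaredoxin. Cd226 stood at 2169 in that ranking of Tigit, with a mean correlation of -0.04. No gene followed Cd226 closely: the top 5, Wdr1, Tor1aip2, Unc50, Mbp and Zyx, were all at 0.20. For Cd96 the top 5 were Rnf166 (0.26), Zyx (0.24), Atp6v1d (0.23), Il27ra (0.22) and Serpinb9 (0.21). Correlations of this size in sparse single-cell values are descriptions only, and the cells of a group share a pool and differ in gene number.

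The ligands of the receptors were scarce in the T cells themselves. None of the 7 ligands and sister receptors in the table reached 20% of cells in any group, and Pvrig was not analysed here. Pvr was found in 12.2%, 10.5%, 15.3% and 12.4% of WT CD8, KO CD8, WT CD4 and KO CD4 cells. The nectin-1 and nectin-3 genes (Pvrl1 and Pvrl3) were found in 0 cells of each group. A count of 0 allows up to 3 cells, a share of cells with a value of 3.33% to 3.53% by group, and does not limit the share of cells that express the gene. The nectin-2 gene (Pvrl2) was found in 1 WT CD8 and 1 KO CD4 cell. Crtam, a sister receptor that binds the product of Cadm1, was in 18.9% (11.4% to 28.5%) and 12.8% (6.56% to 21.7%) of the CD8 pools and in 2.35% and 1.12% of the CD4 pools.

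Signalling partners of the receptors, such as the kinases Fyn and Lck, the adaptor Lcp2, the LFA-1 chains Itgal and Itgb2 and the phosphatases Inpp5d and Ptpn6, were mostly lower in the KO CD8 pool, as most genes were. Of 11 measured there, 9 were below 0 and 2 above it, Prkcq at 0.82 and Lcp2 at 0.05. None was at least 1 higher in KO, against 0.555% of all genes, and 2, Itgb2 and Ptpn6, were at least 1 lower, against 13.3%, with a median of -0.30 beside -0.40. In the CD4 pools 2 of 12, Plcg1 and Itgb2, were at least 1 higher in KO, against 9.91% of genes, and 0 lower, against 0.983%, with a median of 0.42 beside 0.23. Between CD4 and CD8 in WT, 5 of 12 were at least 1 lower in CD4, namely Lck, Vav1, Plcg1, Itgb2 and Ptpn6, against 23.4% of genes, with a median of -0.81 beside -0.53. In KO, Itgb2 was at least 1 higher in CD4, against 8.24% of genes, and Lck and Prkcq at least 1 lower, against 4.55%, with a median of 0.06 beside 0.03.

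Other checkpoint and memory genes give the setting of the CD8 values. Of 5 measured co-inhibitory receptors 3, Pdcd1, Havcr2 and Lag3, were at least 1 lower in KO CD8, against 13.3% of measured genes, with a list median of -1.41 beside -0.40 over all genes, while Tigit was at 0.02. Of 7 naive and memory genes 2, Tcf7 and Il7r, were at least 1 higher, against 0.555% of genes, with a median of 0.57. Under 2500 genes the KO minus WT differences were 0.18 for Pdcd1, -0.23 for Lag3 and 1.10 for Ctla4, beside 0.97 for Tigit.

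NK cells also express all 3 receptors, so NK markers were read in each pool. Ncr1, their defining marker, was at 0 in every kept cell, and the 4 NK markers summed to a mean of 18.3 FPKM for WT CD8, 34.3 for KO CD8, 9.06 for WT CD4 and 10.6 for KO CD4. Their median sum was 0 in each pool, and at most 2 of the 4 reached 5% of cells. At 10 FPKM, 2 or more NK markers were found in 3 WT CD8, 0 KO CD8, 0 WT CD4 and 1 KO CD4 cells. Cells with 2 or more markers of any 1 of 10 other cell types at 10 FPKM, NK cells included, numbered 9, 5, 8 and 9 in the 4 groups. Without them, Cd226 was in 35.8% of WT CD8 and 53.1% of KO CD8 cells, and Tigit in 58% and 63%.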

How the data were processed

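Single-cell Smart-seq2 libraries of 371 T cells from B16F10 tumours were read from 1 deposited table. The authors deposited gene-level FPKM from Bowtie and RSEM with the mm10 build, TMM-normalized between cells, per the submitters' processing notes and the labels; tool versions are not given in the sources used here. Of 375 columns, 4 were named Population and were not used, and 4 entries with repeated symbols were left out. No 2 cells had identical values. The number of reads behind a value was not derived here, so the precision of single values is unknown.

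A cell was kept when 1000 genes or more reached 1 FPKM. Group values are means over cells of log2(FPKM + 1), and a pseudocount of 1 understates differences of low genes. A gene was measured when at least 20% of cells of either group had it, and counted as different at 1 or more on the log2 scale. Each group was treated as 1 pool, so no p-value was computed. Shares carry exact 95% intervals (scipy 1.17.1), and a share of 0 the limit that 3 counts allow. Named genes were the 3 members, fixed lists of ligands, partners and T cell states, and the 5 genes most alike in level. 1 list member is not reported here by name. The receptors, lists and comparisons were chosen with earlier results of these data known. No doublet caller was used. Calculations used Python 3.11.15, pandas 2.3.3 and numpy 2.4.6. The difference of means was checked by adding shifts of known size to the values of real WT CD8 cells. Co-detection, balance and the shares with other genes were not checked in this way. Alternatives varied the pseudocount, the detection level, the gene minimum per cell, the weighting by gene number and the Foxp3 split.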

Additional observations from a re-analysis of the deposited data

Results flagged for a closer look

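The KO minus WT difference of Cd226 was 1.22 on the log2(FPKM + 1) scale in the CD8 pools and -0.07 in the CD4 pools, near 0. The CD4 value kept its sign in 8 of 11 other settings and was 0.27 without CD4-sorted cells that had Cd8a or Cd8b1 at 10 FPKM or above, 0.02 in cells without Foxp3 and 0.00 with no filter on cells. Tigit was at 0.02 in the CD8 pools and -0.54 in the CD4 pools. These values are given because their signs differ between the sorts. With 1 pool per group, neither difference between the sorts was tested.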

How the results depend on the processing

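Of 539 values recomputed under other settings, 478 stayed within their limit of change and 61 moved past it: a shift of over 0.5 or a crossing of 1 for log2 differences, and the 95% interval for shares. No called difference changed sign, and the 16 recomputed counts of genes past a difference of 1 stayed within 1.5 times. No paired analysis was made, because the titles do not say which cells share a mouse and their cell numbers do not recur across groups. Each group was treated as 1 pool, so no replicate could be left out.

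With a pseudocount of 0.1 instead of 1, the Cd226 difference between the CD8 pools was 1.74, and with 10 it was 0.70, under the limit of 1; it was above 0 in 10 of 10 settings. CD4 minus CD8 with 0.1 was -2.76 for Cd226 in KO and -2.48 for Cd96 in WT, and with 10 it was -0.96, and -1.01 for Cd96 in WT and -0.62 in KO. The Tigit minus Cd226 balance with 0.1 was 2.87 for WT CD8, 5.91 for WT CD4 and 5.26 for KO CD4, and with 10 it was 1.54, 3.08 and 2.74.

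At detection from 5 FPKM the Tigit shares were 46.7% in WT CD8 and 46.5% in KO CD8. From 20 FPKM they were 42.2%, 45.3% and 56.5% in WT CD4, Cd226 was in 26.7% of WT CD8 and 37.2% of KO CD8, Tigit with Cd226 in 12.2% of WT CD8, and Cd226 with Cd96 in 14% of KO CD8.

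In cells with at least 1500 genes, Tigit was in 81.5% of WT CD4, CD4 minus CD8 in WT was 2.47 for Tigit, and the balance was 5.05 in WT CD4 and 4.51 in KO CD4. With at least 2000 genes, KO minus WT for Cd96 was -0.84 in CD8 and 1.15 in CD4, CD4 minus CD8 was -2.72 for Cd226 in KO, -2.80 for Cd96 in WT and -0.81 in KO, Tigit was in 80% of WT CD4 and 73% of KO CD4, and the balance was 2.70 for WT CD8, 1.47 for KO CD8 and 5.69 in both CD4 pools. Weighted to equal gene numbers, Tigit was at 0.94 for KO minus WT in CD8 and 2.40 for CD4 minus CD8 in WT. Under 2500 genes, chosen after seeing the data, KO minus WT in CD8 was 0.97 for Tigit and 1.09 for Cd96, Cd96 was in 23.8% of WT CD8, and Tigit with Cd96 in 14.3%.

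With Foxp3, Tigit was at 0.57 for KO minus WT and in 84.8% of WT and 88.6% of KO cells, Cd226 in 8.57% of KO, Cd96 in 8.70% of WT, Cd226 with Cd96 and all 3 each in 2.17% of WT and 0% of KO, the balance was 7.09 in WT and 8.22 in KO, and Tigit was the higher in 100% of KO. Without Foxp3, Tigit was in 51.3% and 44.4%, the balance was 1.33 and 1.22, and Tigit was the higher in 70.8% and 71.9%. The cause of these shifts was not tested, and the unknown number of reads per cell limits all shares.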
